A study of Homo sapiens with 27 samples.

Results

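The comparison described here set human embryonic stem cells on a matrix led by laminin-523 (LN523) against the same cells on a matrix led by laminin-521 (LN521) at day 2, before neural induction began. It was defined by the column names of the deposited count table, which gave 3 LN523 and 3 LN521 libraries, 6 of the 27 libraries of the series. The cells were H1, an established human embryonic stem cell line, at passages 10 to 25, and the labels call them undifferentiated at this day. They were still in maintenance medium, and the medium that starts neural induction followed the sampling. All groups are of this 1 line, so other lines were not compared. The labels give the coatings as Laminin 523 + Laminin 323 and Laminin 521 + Laminin 323, with another group on Laminin 323 alone, whereas the study's methods describe LN523 + LN521, LN323 + LN521 and LN521 alone. The matrices are therefore named here by their leading isoform, and what else was on the plate is not settled by these sources. The sample titles write day 0 where the other labels write day 2. Replicate numbers equal sequencing lanes, and nothing states that replicates came from separate cultures, so the tests measure the spread between these libraries, which may be technical.

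Laminins are trimers of an α, a β and a γ chain that form the sheet on which epithelial and stem cells sit. LN521 and LN523 share the α5 and β2 chains and differ in the third chain, γ1 in LN521 and γ3 in LN523. Pluripotent stem cells attach to α5 laminins mainly through integrin α6β1, and LN521 is a common substrate for growing them, whereas γ3 laminins are known from the retina. Attachment through integrins feeds into focal adhesion and ERK signalling, which set the level of immediate early genes such as *EGR1* and *FOS*. The question asked of these libraries was which genes differed between the matrices while the cells were still near pluripotency.

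The LN523 libraries held 27855193 to 42473603 counts and the LN521 libraries 30577756 to 40689003. Both mates of a pair were counted, since 69.2% of the counts above 0 were even numbers, so that 2 counts often stand for 1 fragment. Levels are given as CPM, the usual counts scaled to a common library total, here after trimmed-mean (TMM) scaling. The pluripotent identity held in every library: the summed level of 10 stem cell markers was 14586 to 16396 CPM on LN523 and 11736 to 15415 CPM on LN521. The 7 markers of primitive streak, mesoderm and endoderm were each under 1 CPM and summed to 1.29 to 1.71 CPM on LN523 and 1.13 to 2.56 CPM on LN521. Markers of neuroectoderm summed to 2.19 to 4.64 and 2.33 to 3.38 CPM, and those of amnion and surface ectoderm to 3.57 to 5.04 and 3.88 to 7.95 CPM. Fibroblast markers summed to 134 to 276 CPM on LN523 and 220.4 to 378 CPM on LN521, nearly all of it *COL1A1*. Of the 5 fibroblast markers, 2 had a mean under 1 CPM over the 6 libraries and the others were at 1 CPM or more. *DCN*, 1 of these 2, was at 0, 0.341 and 0.29 CPM on LN523 and 0, 0.228 and 0.0994 CPM on LN521. Libraries of 1 matrix also stood apart from each other. The first principal component of the 9 day 2 libraries held 30.01% of the variance and placed LN521 at 82.1, 54.9 and 26.5 and LN523 at -13.8, -45.8 and 5.91 in replicate order. The second held 21.7% and set the replicate 3 libraries of LN521 (59.1) and LN523 (67.6) apart from replicates 1 and 2, whereas on LN323 replicate 2 was the high one (29.4) and replicate 3 (-24.9) lay beside replicate 1 (-25.9).

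With the terms of the study's own model, lane and matrix, and its filter on counts, 241 of 38650 genes tested passed an adjusted p of 0.05, which is 0.624% of them. On LN523, 62 were higher (0.16%) and 179 were lower (0.463%). The fit was edgeR's quasi-likelihood test over all genes above 1 count in the 9 libraries of day 2, whereas the study's methods name DESeq2. The median difference of the called genes was 0.80 on the log2 scale for those higher and -1.55 for those lower. All 3 replicate pairs had the same sign in 51 of the 62 and 156 of the 179 (in *BNC1* the third pair held no counts and took its sign from the prior count), and the 3 LN523 values lay wholly outside the 3 LN521 values in 31 and 128 of them. Over all genes tested, 4.42% had LN523 wholly higher and 7.59% wholly lower, and among genes at 1 CPM or more these shares were 9.42% and 7.43%. The calls were 0.39% higher and 0.978% lower among genes at 1 CPM or more. Of those genes, 54.0% had a difference above 0. Of the protein-coding genes among them in the highest quintile by level, 77.5% were above 0.

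How many genes were called depended on the settings, and this bears on every adjusted p and standard error (SE) given for this day. In this fit the estimated spread of each gene was set fully to the trend over genes of like level, so a gene with widely scattered replicates was judged by the spread typical of its level. When genes with few counts were removed by edgeR's filterByExpr, 21443 genes were left, each gene's own spread entered the test, and edgeR called 0 genes, with 2103 at an unadjusted p under 0.05 against 3118 in the first fit. DESeq2, the study's tool in a later version, called 637 genes (1.65%, with 103 higher, 0.266%, and 534 lower, 1.38%), of which 123 were among the 241. Leaving out 1 library at a time gave 28 to 890 calls: without LN523 replicate 1, 2 or 3 there were 33, 84 and 890, and without LN521 replicate 1, 2 or 3 there were 28, 109 and 286. Without the whole replicate 3 pair there were 1056, and without the replicate 1 pair 14. Long non-coding genes *MALAT1* and *MIAT*, together with *WSB1* and *EGR1*, were the named genes called in all 9 of these reduced sets, and none of the 58 named genes called in the first fit was called after filterByExpr.

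**Figure D1:**
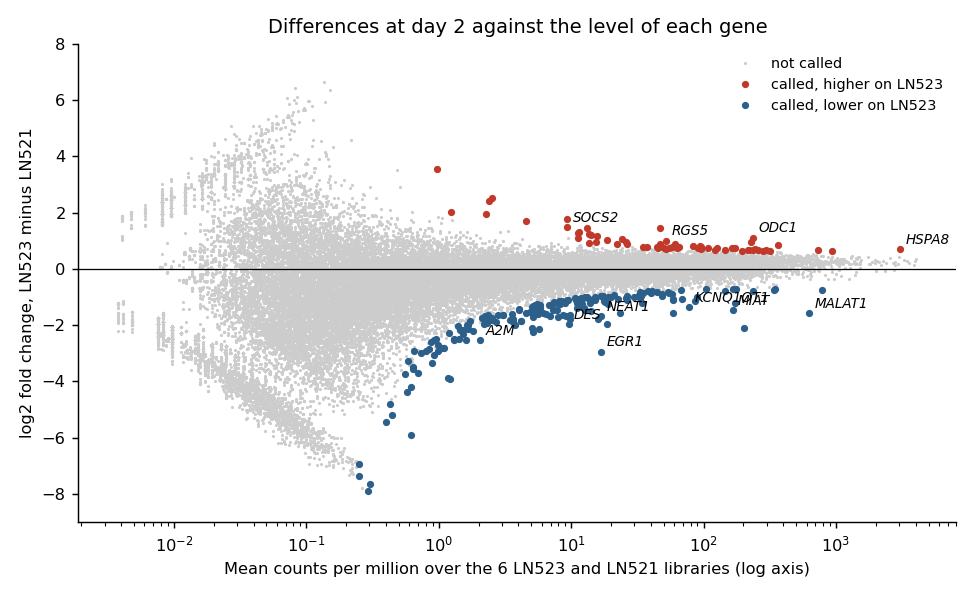
Each point is a gene, with its mean level over the 6 LN523 and LN521 libraries in CPM on a log axis and its log2 fold change (LN523 minus LN521) on the vertical axis. The 62 genes called higher are mostly well-expressed genes with differences near 0.80, while the 179 called lower extend to rare transcripts, and *EGR1* and *MALAT1* stand out below the rest at their level.

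Long non-coding RNAs were more often lower on LN523 than protein-coding genes. Of 1153 long non-coding genes at 1 CPM or more, 25.0% had a difference above 0 and the median was -0.29, beside 57.6% and 0.06 for 13518 protein-coding genes. The called genes among them were 37 lower (3.21%) and 2 higher (0.173%), against 0.651% lower and 0.377% higher of the protein-coding genes. Protein-coding genes in the lowest quintile by level, at 1.00 to 6.52 CPM, had 35.2% above 0 and a median of -0.17. The classes were not matched for level, and the part that level played was not tested. As a share of all counts, long non-coding RNA took 1.02, 0.990 and 1.11% in the LN523 libraries and 1.67, 1.44 and 1.20% in the LN521 libraries, and the groups did not overlap. The gap narrowed from 1 lane pair to another, with medians of -0.42, -0.38 and -0.09 in pairs 1, 2 and 3. Unprocessed and unitary pseudogenes, which are disabled genes that keep their introns, had a median of -0.42 over 286 genes, with 17.5% above 0 and 3.5% called lower, and 77 loci annotated as still to be verified by experiment had a median of -0.52, with 19.5% above 0 and 9.09% called lower. Processed pseudogenes, which are intronless copies of messenger RNA, had a median of 0.05 over 301 genes.

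**Figure D2:**
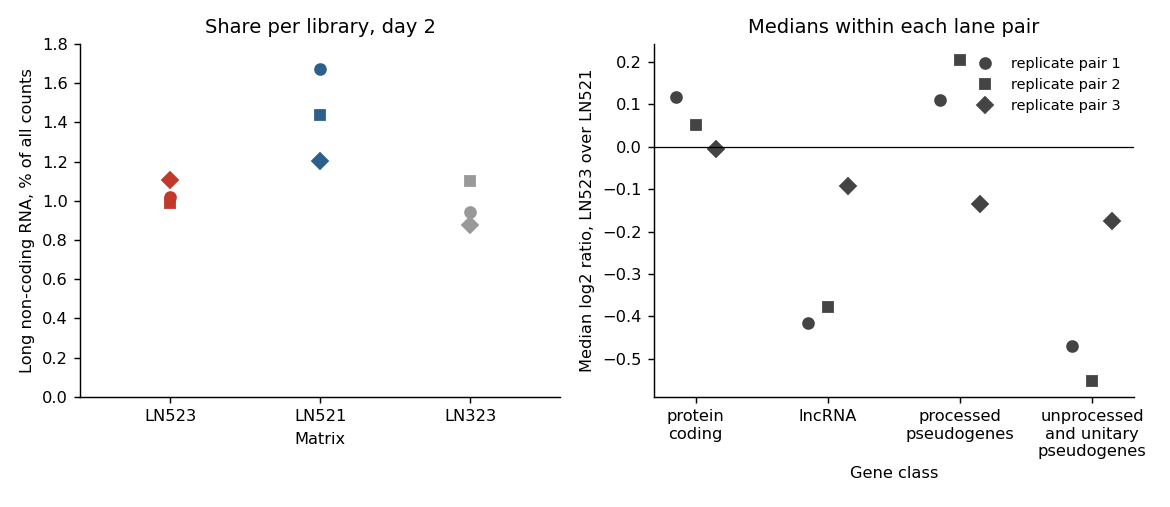
The left panel gives long non-coding RNA as a percentage of all counts in each day 2 library, by matrix, and the right panel gives the median log2 ratio of LN523 over LN521 in each of the 3 lane pairs for 4 gene classes. LN521 holds the 3 highest shares, at 1.67, 1.44 and 1.20%, and long non-coding RNAs and unprocessed pseudogenes are below 0 in every pair, least so in pair 3.

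The nuclear RNAs carried the steadiest single-gene differences. *MALAT1*, the abundant RNA of nuclear speckles, was at 330.0, 274 and 324 CPM in the LN523 libraries and 1090.2, 933 and 799.6 CPM in the LN521 libraries, so every LN523 library was below every LN521 library, with a log2 fold change of -1.58 ± 0.18 (SE, adjusted p = 2.23e-15). It remained below 0 in all 24 alternative settings and was called in 18 of them, with DESeq2 giving an adjusted p of 4.09e-07 and filterByExpr 0.475. An annotated antisense transcript covers 83.7% of *MALAT1*, and the strand setting of the counting is not given in the sources used here. *MIAT*, another nuclear long non-coding RNA, was at 111, 71.5 and 81.9 CPM in the LN523 libraries and 219, 277 and 233 CPM in the LN521 libraries, again without overlap, and its log2 fold change was -1.46 ± 0.19 (SE, adjusted p = 1.31e-10). *GABPB1-AS1*, transcribed beside the transcription factor gene *GABPB1*, was at 27.4, 23.1 and 32.7 CPM in the LN523 libraries and 100.7, 118 and 47.4 CPM in the LN521 libraries and fell by 1.58 ± 0.21 on the log2 scale (SE, adjusted p = 6.45e-10). These 3 RNAs had no LN523 library as high as any LN521 library.

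*NEAT1*, the scaffold of paraspeckles, was at 6.3, 5.74 and 9.93 CPM in the LN523 libraries and 43.1, 22.8 and 12.6 CPM in the LN521 libraries, and the third LN521 library lay close to the LN523 range. Its log2 fold change was -1.68 ± 0.28 (SE, adjusted p = 5.56e-06). *KCNQ1OT1*, the imprinted antisense RNA within *KCNQ1*, was at 44.3, 35 and 33.8 CPM in the LN523 libraries and 238, 75.8 and 41.6 CPM in the LN521 libraries, with a log2 fold change of -1.36 ± 0.20 (SE, adjusted p = 1.34e-07). Here the first LN521 library was far above the rest, the groups overlapped, and DESeq2 gave an adjusted p of 0.388. *LINC00458* was at 3.48, 8.36 and 11.1 CPM in the LN523 libraries and 32.8, 19.5 and 19.7 CPM in the LN521 libraries and fell by 1.78 ± 0.27 (log2, SE, adjusted p = 1.34e-07). On the list of nuclear-retained and structural RNAs, 3 of the 11 tested members were called, all lower, beside 0.463% of all genes tested. Among genes at 1 CPM or more the share called lower was 0.978%, and among long non-coding genes at that level 3.21%. The median of the 9 members at 1 CPM or more was -0.29 beside 0.03 over all 15644 such genes. The list was not lower throughout, since the spliceosomal RNA *RNU4-2* was at a difference of 0.48 (adjusted p = 0.749).

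**Figure D3:**
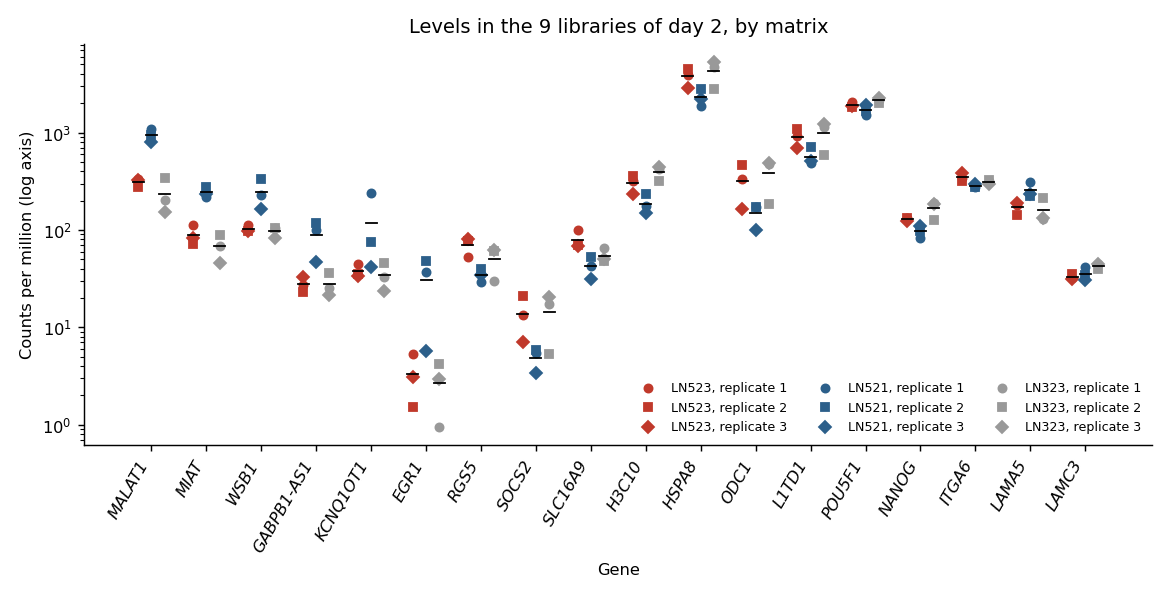
Levels in CPM on a log axis are plotted for 18 genes in the 9 day 2 libraries, coloured by matrix, with the replicate given by the marker and the group mean by a bar. *MALAT1*, *MIAT* and *EGR1* have all LN523 points below all LN521 points, *RGS5*, *SOCS2*, *SLC16A9* and *HSPA8* have them above, and *POU5F1* and *LAMC3* overlap.

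The immediate early gene *EGR1*, a zinc finger transcription factor induced within minutes by growth factor and adhesion signals, had the smallest p of all named genes. Its level was 5.3, 1.54 and 3.12 CPM in the LN523 libraries and 37.4, 48.2 and 5.72 CPM in the LN521 libraries. Every LN523 library was lower, but the third LN521 library was nearly as low as the highest LN523 library. The log2 fold change was -2.95 ± 0.30 (SE, adjusted p = 7.72e-18), DESeq2 gave an adjusted p of 0.114, and with 1 library left out at a time the log2 fold change ranged from -3.65 to -2.16. *FOS*, a subunit of the AP-1 factor, was at 8.27, 9.04 and 3.7 CPM in the LN523 libraries and 20.2, 39.4 and 4.67 CPM in the LN521 libraries, with overlapping groups and a log2 fold change of -1.50 ± 0.28 (SE, adjusted p = 9.66e-05), and DESeq2 gave an adjusted p of 0.795. *EGR1* and *FOS* were the 2 called among 24 immediate early genes tested, both lower. The share called lower was 0.463% of all genes tested and 0.978% of those at 1 CPM or more. The 18 members at 1 CPM or more had a median of -0.12, 5 were above 0, and the highest was *FOSL2* at 0.81 (adjusted p = 0.399).

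The *EGR1* promoter is shown because this gene had the largest fall among well-expressed named genes and is a textbook target of serum response factor, which binds the CArG box. RefSeq (GRCh38.p14) gives the 250 bases before its start at chr5:138465229-138465478, plus strand, read 5′ to 3′ along the gene, with CArG boxes in capitals:
EGR1: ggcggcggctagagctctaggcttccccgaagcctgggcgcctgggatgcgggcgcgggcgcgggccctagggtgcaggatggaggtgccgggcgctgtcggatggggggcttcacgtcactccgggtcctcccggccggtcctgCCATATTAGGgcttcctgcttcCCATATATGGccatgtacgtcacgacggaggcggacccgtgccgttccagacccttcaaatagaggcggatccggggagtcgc
It holds 2 CArG boxes, beginning 105 and 83 bases before the start. A CArG box lay in 1.16% of the 35116 RefSeq promoter windows of this length, searched on both strands. None lay in the window of *FOS*, which holds the letters TATAAA. Bases further upstream were not searched, so this does not show that *FOS* lacks the box. A match of letters is not evidence of binding.

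Other named genes that fell were of mixed function. *WSB1*, a substrate receptor of a ubiquitin ligase, was at 112, 98 and 97.2 CPM in the LN523 libraries and 229, 336 and 163 CPM in the LN521 libraries, without overlap, and its log2 fold change was -1.19 ± 0.19 (SE, adjusted p = 8.33e-07), with an adjusted p of 1.7e-05 by DESeq2. *ROBO2*, the receptor for SLIT guidance cues, was at 4.38, 5.06 and 3.12 CPM in the LN523 libraries and 11.8, 13.2 and 9.12 CPM in the LN521 libraries, also without overlap, with a log2 fold change of -1.45 ± 0.31 (SE, adjusted p = 0.00275). It was the 1 called gene on a list of 42 axon guidance and neuronal genes, whose 41 members at 1 CPM or more had a median of -0.13. Of all genes at 1 CPM or more, 0.978% were called lower. *DES*, the intermediate filament of muscle, was at 2.89, 3.04 and 3.44 CPM in the LN523 libraries and 8.5, 35.6 and 3.9 CPM in the LN521 libraries, so that its difference of -1.96 ± 0.33 (log2, SE, adjusted p = 9.33e-06) rested largely on the second LN521 library. *MKI67*, the proliferation marker, was at 125, 122 and 136 CPM in the LN523 libraries and 365, 199.8 and 114 CPM in the LN521 libraries, and its difference of -0.72 ± 0.19 (adjusted p = 0.0306) did not hold in the third pair. *L3MBTL1*, an imprinted reader of chromatin marks, was at 9.82, 10.5 and 14 CPM in the LN523 libraries and 24.2, 22.4 and 20.7 CPM in the LN521 libraries, with a log2 fold change of -0.97 ± 0.26 (SE, adjusted p = 0.0352).

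The largest falls by fold among named genes were of transcripts near the detection limit. The naming rule asked for a mean of 1 CPM in at least 1 of both groups. Of the genes listed next, all but *RACK1P3* met it through LN521 alone, where they are high. Their LN523 means ran from 0.0945 CPM for *CCNYL7* to 0.571 CPM for *CCDC144BP*, so the ranking is partly set by that rule. For *TAS2R3*, *CCNYL7*, *PIMREGP3*, *TAS2R30*, *TAS2R19*, *RN7SKP127* and *NRN1* the mean over the 6 libraries was also under 1 CPM. It ran from 0.64 CPM for *TAS2R3* to 0.873 CPM for *NRN1*. The genes were the bitter taste receptors *TAS2R3*, *TAS2R19* and *TAS2R30*, the pseudogenes *CTAGE14P*, *CCNYL7*, *PIMREGP3*, *RPL23AP64*, *RACK1P3* and *CCDC144BP*, the 7SK-related *RN7SKP127*, and *NRN1*, *A2M*, *DLGAP1-AS5* and *CATSPER2*. Their log2 fold changes ran from -3.88 for *CTAGE14P* to -2.18 for *CCDC144BP*, among which *EGR1* also falls. *CTAGE14P* was at 0, 0.114 and 0.435 CPM in the LN523 libraries and 4.22, 1.23 and 1.09 CPM in the LN521 libraries, and *TAS2R3* at 0.146, 0.171 and 0 CPM in the LN523 libraries and 2.15, 1.12 and 0.249 CPM in the LN521 libraries. In both the first LN521 library was the highest. Levels this low rest on few counts in a library, and reads of pseudogenes, of the taste receptor family and of *CATSPER2*, which has a near copy, may be split between copies. *A2M*, a secreted protease inhibitor, was at 0.632, 0.569 and 0.29 CPM in the LN523 libraries and 4.45, 6.01 and 0.348 CPM in the LN521 libraries, and the third LN521 library lay inside the LN523 range.

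Histone genes were the clearest group on the higher side. On LN523, 28 of 29 members of the list of replication-dependent histones were above 0, with a median of 0.55 beside 0.03 over all genes. Of the 29, 21 members had all LN523 libraries above all LN521 libraries, beside 9.42% of all genes at 1 CPM or more. Of the 29 tested, 6 were called, all higher (*H1-5*, *H2AC4*, *H3C1*, *H3C10*, *H4C1* and *H4C2*). The background for higher calls among genes at 1 CPM or more was 0.39%. The summed level of the list was 7666 to 9337 CPM on LN523 and 5261 to 6676 CPM on LN521, and the pairs gave medians of 0.66, 0.55 and 0.46. Taken by symbol over the whole table, 84 histone genes were tested, 14 were called and all 14 were higher, while 61 of 67 at 1 CPM or more were above 0. The lowest adjusted p that DESeq2 gave among the 84 was 0.0584.

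Replication-dependent histones are made in S phase, and their messenger RNAs lack a poly(A) tail, so they are read in total RNA libraries such as these. *H3C10* was at 318, 362 and 232 CPM in the LN523 libraries and 176, 234 and 150.4 CPM in the LN521 libraries, with 1 LN521 library just above the lowest LN523 library, and its log2 fold change was 0.70 ± 0.18 (SE, adjusted p = 0.0191). *H1-5*, a linker histone, was at 1181, 1248 and 989 CPM in the LN523 libraries and 643, 854 and 714 CPM in the LN521 libraries, without overlap, with a log2 fold change of 0.63 ± 0.16 (SE, adjusted p = 0.0317). In both genes the third LN523 library was the lowest of its group. The copies code for near-identical proteins, and how the counting treated reads that match several of them is not given in the sources used here. *H1-1*, a further linker histone outside the list, was at 15.7, 38.6 and 8.52 CPM in the LN523 libraries and 11.8, 13 and 5.37 CPM in the LN521 libraries and rose by 0.97 ± 0.25 (log2, SE, adjusted p = 0.0261), with overlap and with an adjusted p of 0.873 by DESeq2.

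A pair of H3 promoters is printed because these genes moved together and show the common layout of histone promoters. They are the 250 bases before the start in RefSeq (GRCh38.p14), for *H3C1* at chr6:26020201-26020450, plus strand and for *H3C10* at chr6:27809801-27810050, plus strand, read 5′ to 3′ along the gene, with CCAAT and TATAAA in capitals:
H3C1: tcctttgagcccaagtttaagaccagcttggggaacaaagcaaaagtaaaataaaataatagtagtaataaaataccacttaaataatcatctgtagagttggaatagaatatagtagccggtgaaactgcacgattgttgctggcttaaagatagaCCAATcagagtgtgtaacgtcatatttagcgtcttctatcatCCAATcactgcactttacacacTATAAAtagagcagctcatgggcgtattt
H3C10: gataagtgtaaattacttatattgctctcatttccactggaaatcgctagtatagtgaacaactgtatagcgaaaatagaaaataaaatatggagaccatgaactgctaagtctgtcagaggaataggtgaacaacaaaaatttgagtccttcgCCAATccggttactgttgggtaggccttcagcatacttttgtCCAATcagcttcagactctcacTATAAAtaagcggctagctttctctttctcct
Each has CCAAT at 2 places, TATAAA once, and nearly the same spacing, with TATAAA 29 and 32 bases before the start. Of the 6 called list members, 5 had 1 promoter window in the table (*H4C1* had none), and 4 of the 5 held CCAAT and 4 held TATAAA on either strand. Over all windows CCAAT was found in 32.0% and TATAAA in 10.7%.

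Genes of DNA replication differed little one by one, but most of them lay above 0. Of 30 G1 and S phase genes, 29 were above 0 and the median was 0.42, with 0.54, 0.45 and 0.23 in the 3 pairs. *UHRF1*, which recruits the maintenance DNA methyltransferase to replicating DNA, was the 1 called, at 143, 137 and 78.4 CPM in the LN523 libraries and 85.7, 91.6 and 41.8 CPM in the LN521 libraries, with a log2 fold change of 0.72 ± 0.19 (SE, adjusted p = 0.0306) and overlapping groups. Of all genes at 1 CPM or more, 0.39% were called higher. The ribonucleotide reductase subunit *RRM2* was at 0.60 (adjusted p = 0.105), and at the other end *CDK2* was at -0.06 (adjusted p = 0.984). G2 and M phase genes had a median of 0.06, with 23 of 30 above 0 and *MKI67* called lower, so the list did not follow the S phase list in size. Of protein-coding genes in the highest quintile by level, 77.5% were above 0.

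Chaperones formed a further group. Of 15 heat shock and chaperone genes, 14 were above 0 with a median of 0.37, 3 were called higher (background 0.39% among genes at 1 CPM or more), and the summed level was 10383 to 13198 CPM on LN523 and 7699.8 to 9289.9 CPM on LN521, without overlap. *HSPA8*, the constitutive HSP70, was at 3945, 4535 and 2849 CPM in the LN523 libraries and 1892, 2794 and 2230.3 CPM in the LN521 libraries, and its log2 fold change was 0.71 ± 0.16 (SE, adjusted p = 0.00342). *HSPH1*, its nucleotide exchange factor, was at 220.0, 229 and 167 CPM in the LN523 libraries and 127, 151 and 90.6 CPM in the LN521 libraries (log2 fold change 0.74 ± 0.18 (SE, adjusted p = 0.0153)). *DNAJA1*, a co-chaperone of HSP70, was at 312, 335 and 232 CPM in the LN523 libraries and 162, 206 and 181 CPM in the LN521 libraries (log2 fold change 0.68 ± 0.18 (SE, adjusted p = 0.031)). In all 3 the LN523 libraries were above the LN521 libraries and the third LN523 library was nearest to them. DESeq2 gave adjusted p values of 0.228, 0.0651 and 0.164. The lowest member was *BAG3* at -0.06 (adjusted p = 0.989).

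The promoters of *HSPA8* and *DNAJA1* are shown for the paired half-sites of the heat shock element, GAANNTTC, which heat shock factors bind. They are the 250 bases before the start in RefSeq (GRCh38.p14) at chr11:123062137-123062386, minus strand, and at chr9:33025023-33025272, plus strand, read 5′ to 3′ along the gene with GAANNTTC in capitals:
HSPA8: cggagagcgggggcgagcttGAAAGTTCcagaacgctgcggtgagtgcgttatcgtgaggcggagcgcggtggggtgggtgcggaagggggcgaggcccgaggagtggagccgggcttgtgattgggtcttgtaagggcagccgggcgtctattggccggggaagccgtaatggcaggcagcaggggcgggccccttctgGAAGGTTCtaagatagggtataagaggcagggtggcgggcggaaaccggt
DNAJA1: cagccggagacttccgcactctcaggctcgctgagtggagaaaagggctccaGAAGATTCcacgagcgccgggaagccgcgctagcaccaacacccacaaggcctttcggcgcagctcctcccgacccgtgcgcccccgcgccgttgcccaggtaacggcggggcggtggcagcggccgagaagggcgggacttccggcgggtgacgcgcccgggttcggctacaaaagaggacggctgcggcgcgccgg
*HSPA8* has 2 matches, beginning 230 and 50 bases before the start, and *DNAJA1* has 1, beginning 198 bases before it. No match was found in the window of *HSPH1*. The letters, which read the same on both strands, were found in 5.78% of all windows.

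Genes of translation and respiration lay mostly above 0, with no call. Of 54 cytosolic ribosomal protein genes, 53 were above 0, with a median of 0.24, but edgeR called 0, with 3 at an unadjusted p under 0.05, and none had groups wholly apart. Their pair medians were 0.52, 0.33 and -0.13, so the third pair went the other way. Summed, they took 61273 to 63567 CPM on LN523 and 44419 to 68608 CPM on LN521. Nuclear genes of the respiratory chain and ATP synthase had 37 of 38 above 0 and a median of 0.31, again with 0 called by edgeR (12 at an unadjusted p under 0.05), and pair medians of 0.49, 0.46 and 0.00. The deposited TPM values, which are scaled to transcript length and to the library sum, moved the median of all genes at 1 CPM or more to -0.15 on the log2(TPM + 1) scale. On that scale every list moved down with it, and the ribosomal proteins had a median of 0.05, the respiratory genes 0.11, histones 0.36, S phase genes 0.22 and chaperones 0.16. G2 and M phase genes turned to a median of -0.13, with 5 of 30 above 0 beside 4436 of all 15644 genes.

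**Figure D4:**
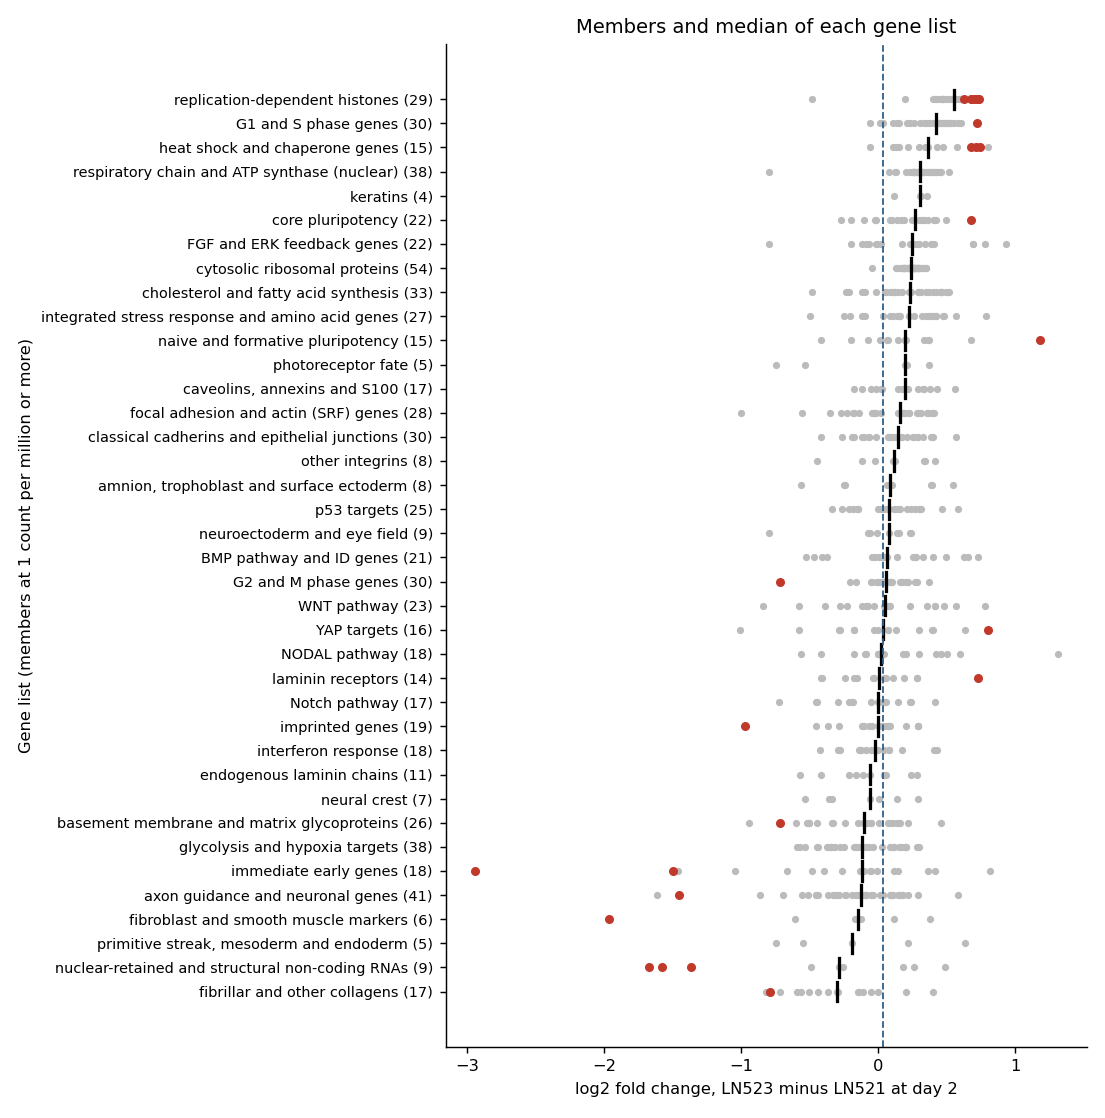
Each row is a gene list, with the number of members at 1 CPM or more in brackets. Points are members by log2 fold change (LN523 minus LN521), red where called, the bar is the list's median, and the dashed line is the median of all genes (0.03). Histones, S phase genes and chaperones lie furthest to the right at 0.55, 0.42 and 0.37, and collagens and nuclear RNAs furthest to the left at -0.30 and -0.29.

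Among single genes that rose, *RGS5*, which speeds GTP hydrolysis by G proteins, was at 52.5, 77.3 and 81.4 CPM in the LN523 libraries and 29.1, 39.7 and 34.5 CPM in the LN521 libraries, without overlap, with a log2 fold change of 1.01 ± 0.20 (SE, adjusted p = 0.000682) and an adjusted p of 0.000616 by DESeq2. *SLC16A9*, of the monocarboxylate transporter family, was at 99.7, 69.7 and 67.8 CPM in the LN523 libraries and 42.9, 53.2 and 31.3 CPM in the LN521 libraries (log2 fold change 0.89 ± 0.20 (SE, adjusted p = 0.00503)), and *MAPK8IP2*, a scaffold of JNK signalling, at 24, 22.4 and 11.2 CPM in the LN523 libraries and 6.34, 10.2 and 4.42 CPM in the LN521 libraries (log2 fold change 1.44 ± 0.26 (SE, adjusted p = 9.24e-05)). These genes, with *LHFPL6*, *ARHGAP22* and *CHCHD2*, were called by DESeq2 as well, and none of the 6 had overlapping groups. *LHFPL6* was at 11.4, 23.6 and 14.5 CPM in the LN523 libraries and 7.42, 7.08 and 4.62 CPM in the LN521 libraries, *ARHGAP22*, which turns off Rac, at 27.3, 29.6 and 17.8 CPM in the LN523 libraries and 13.9, 13.6 and 9.42 CPM in the LN521 libraries, and *CHCHD2*, a mitochondrial protein, at 58.6, 74.1 and 49.5 CPM in the LN523 libraries and 32.9, 23.6 and 44.4 CPM in the LN521 libraries. Their log2 fold changes were 1.31 ± 0.27, 1.01 ± 0.24 and 0.89 ± 0.20 (SE).

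A pair of inhibitors of cytokine signalling was higher on LN523. *SOCS2* was at 13.4, 21 and 7.1 CPM in the LN523 libraries and 5.47, 5.8 and 3.43 CPM in the LN521 libraries, and *SOCS3* at 31.2, 46.3 and 24.4 CPM in the LN523 libraries and 15.2, 19.4 and 18.7 CPM in the LN521 libraries, without overlap in either, and the log2 fold changes were 1.49 ± 0.28 (SE, adjusted p = 0.000204) and 0.96 ± 0.22 (SE, adjusted p = 0.00581). DESeq2 did not call them, with adjusted p values of 0.541 and 0.139. *ODC1*, the first enzyme of polyamine synthesis, was at 330.4, 470.0 and 165 CPM in the LN523 libraries and 173, 171 and 99.5 CPM in the LN521 libraries, with a log2 fold change of 1.11 ± 0.18 (SE, adjusted p = 1.89e-06). It was above its partner in each pair, which the naming rule required, and the lanes differed so much that the groups overlapped. The same held for *HMOX1*, which breaks down haem, at 30.6, 40.5 and 15.7 CPM in the LN523 libraries and 13.6, 18.1 and 14.1 CPM in the LN521 libraries (log2 fold change 0.90 ± 0.22 (SE, adjusted p = 0.0175)), and for *METTL7A*, at 18.8, 27.4 and 7.1 CPM in the LN523 libraries and 11.5, 11.9 and 4.62 CPM in the LN521 libraries (log2 fold change 0.91 ± 0.24 (SE, adjusted p = 0.0366)). *SHISAL1* rose by 1.11 ± 0.26 (adjusted p = 0.0106).

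Some calls rested on few libraries. *DUSP6*, the phosphatase that switches off ERK, was at 6.25, 57.6 and 5.04 CPM in the LN523 libraries and 3.87, 12.4 and 8.13 CPM in the LN521 libraries, with a log2 fold change of 1.18 ± 0.24 (SE, adjusted p = 0.00129). Without LN523 replicate 2 the value was -0.73 (adjusted p = 0.768), which turns the direction. *SERPINB9*, an inhibitor of granzyme B, was at 306, 146 and 401 CPM in the LN523 libraries and 81.5, 102 and 332 CPM in the LN521 libraries, with a log2 fold change of 0.98 ± 0.19 (SE, adjusted p = 0.000251) and an adjusted p of 0.991 by DESeq2. With 1 library or pair left out it ranged from 0.19 to 1.83. The low transcript *BNC1*, a zinc finger protein, was at 0.973, 5.18 and 0 CPM in the LN523 libraries and 0.291, 1.01 and 0 CPM in the LN521 libraries, so that its difference of 2.02 ± 0.55 (SE, adjusted p = 0.0443) rested mainly on the second LN523 library. With 1 library or pair left out it ranged from 0.41 to 2.83, and DESeq2 gave an adjusted p of 0.991. *DUSP6* was counted on the list of naive and formative pluripotency genes, as its 1 called member of 19, beside 0.16% of all genes tested called higher. Over the list of FGF and ERK feedback genes, which does not hold *DUSP6*, edgeR called 0 of 24 (4 at an unadjusted p under 0.05), the median was 0.25 with 15 of 22 above 0, and *DUSP4* was highest at 0.93 (adjusted p = 0.289).

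The factors that define pluripotency did not pass the test. *POU5F1* was at 2059, 1823 and 1869 CPM in the LN523 libraries and 1529, 1678 and 1938 CPM in the LN521 libraries, with a log2 fold change of 0.16 ± 0.16 (SE, adjusted p = 0.917), and *SOX2* was at 496, 427 and 557 CPM in the LN523 libraries and 382, 430.3 and 495 CPM in the LN521 libraries, at 0.18 ± 0.17 (SE, adjusted p = 0.917). *NANOG* was at 134, 132 and 123 CPM in the LN523 libraries and 82.6, 98.4 and 111 CPM in the LN521 libraries, with every LN523 library higher, at 0.42 ± 0.19 (SE, adjusted p = 0.472). On the list of 22 core pluripotency genes the median was 0.27 and 17 were above 0, with pair medians of 0.40, 0.05 and -0.02. Of all genes at 1 CPM or more 54.0% were above 0 and 0.39% were called higher. Of protein-coding genes in the highest quintile by level 77.5% were above 0. On the log2(TPM + 1) scale 12 of the 22 were above 0, with a median of 0.07. By edgeR 8 of the 22 were at an unadjusted p under 0.05, beside 3118 of all 38650 genes tested. *L1TD1*, an RNA-binding protein of pluripotent cells, was the 1 called, at 929.9, 1079 and 702 CPM in the LN523 libraries and 483, 705 and 505 CPM in the LN521 libraries, with overlap at the edge and a log2 fold change of 0.68 ± 0.17 (SE, adjusted p = 0.0169), and DESeq2 gave an adjusted p of 0.37. The neuroectoderm factor *PAX6* was at 1.51, 1.25 and 2.1 CPM in the LN523 libraries and 1.46, 1.05 and 1.59 CPM in the LN521 libraries, with a log2 fold change of 0.23 ± 0.49 (SE, adjusted p = 0.931). *TFAP2A*, *TBXT* and *SOX17* had mean levels under 1 CPM in both groups and adjusted p values of 0.922, 0.801 and 0.917.

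The cells' own laminin genes did not pass the test. Of the 11 chains measured, edgeR called 0, with 1 at an unadjusted p under 0.05, and the median was -0.06. *LAMC3*, which encodes the γ3 chain that the LN523 coating carries, was at 31.8, 35.2 and 31.5 CPM in the LN523 libraries and 41.8, 34.5 and 30.9 CPM in the LN521 libraries, with a log2 fold change of -0.11 ± 0.21 (SE, adjusted p = 0.917). *LAMC1*, the γ1 chain, was at 270.1, 279.8 and 322 CPM in the LN523 libraries and 292, 265 and 289 CPM in the LN521 libraries, at 0.04 ± 0.18 (SE, adjusted p = 0.993). *LAMA5*, the α5 chain common to both coatings, was at 179, 143 and 191 CPM in the LN523 libraries and 309, 224 and 233 CPM in the LN521 libraries, with all LN523 libraries lower, at -0.58 ± 0.18 (SE, adjusted p = 0.123). *LAMB1* and *LAMB2* were at 0.05 (adjusted p = 0.984) and -0.06 (adjusted p = 0.974).

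Among 14 laminin receptors and binding proteins, the median was 0.00 and *SDC1* was the 1 called, beside 0.39% of genes at 1 CPM or more called higher. This heparan sulphate proteoglycan, syndecan-1, was at 133, 124 and 83.3 CPM in the LN523 libraries and 74.9, 78.2 and 51.4 CPM in the LN521 libraries, without overlap, with a log2 fold change of 0.73 ± 0.19 (SE, adjusted p = 0.0286). *ITGA6* was at 341, 315 and 383 CPM in the LN523 libraries and 277, 279 and 297 CPM in the LN521 libraries, and all LN523 libraries were higher, but the log2 fold change was 0.28 ± 0.17 (SE, adjusted p = 0.797). Its partner *ITGB1* was at 345, 401 and 396 CPM in the LN523 libraries and 370.4, 462 and 341 CPM in the LN521 libraries, at -0.04 ± 0.17 (SE, adjusted p = 1). *ITGA3*, *BCAM* and dystroglycan (*DAG1*) were at -0.24, -0.18 and 0.10, with adjusted p values of 0.917, 0.917 and 0.917.

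Matrix genes tended to be lower on LN523. Of all genes at 1 CPM or more, 0.978% were called lower there. Of 17 collagens at 1 CPM or more, 15 were below 0 and the median was -0.30, with pair medians of -0.27, -0.71 and -0.10. *COL1A1* was the 1 called, at 262, 116 and 146 CPM in the LN523 libraries and 315, 362 and 205 CPM in the LN521 libraries, with overlap, at a log2 fold change of -0.79 ± 0.18 (SE, adjusted p = 0.00702). Among 30 other basement membrane and matrix glycoproteins, perlecan (*HSPG2*) was the 1 called, at 125, 86.8 and 161 CPM in the LN523 libraries and 304, 176 and 151 CPM in the LN521 libraries, with a log2 fold change of -0.72 ± 0.19 (SE, adjusted p = 0.0306), and in the third pair LN523 was the higher. DESeq2 gave adjusted p values of 0.057 and 0.375. The YAP-binding *AMOTL2* was at 45.9, 69.4 and 46.4 CPM in the LN523 libraries and 23.9, 22.2 and 57.8 CPM in the LN521 libraries and was called higher (0.80 ± 0.21 (SE, adjusted p = 0.0306)), against the third pair. The YAP targets *CCN1* and *CCN2* were at -0.18 and 0.13 (adjusted p = 0.917 and 0.917), and edgeR called 0 of the 29 focal adhesion and actin genes, with 3 at an unadjusted p under 0.05.

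Signalling and metabolic lists had 0 calls by edgeR, with 41 of 231 genes at an unadjusted p under 0.05, beside 3118 of all 38650 genes tested. They were the NODAL (20 tested), WNT (38), BMP (26) and Notch (22) pathways, glycolysis and hypoxia (39), cholesterol and fatty acid synthesis (33), the integrated stress response (28) and p53 targets (25). Their medians ran from -0.12 for glycolysis and hypoxia to 0.23 for cholesterol and fatty acid synthesis. In the latter 27 of 33 genes were above 0, and 10 were at an unadjusted p under 0.05. Above 0 were 54.0% of all genes at 1 CPM or more and 77.5% of protein-coding genes in the highest quintile by level. Of the 33, 7 had LN523 wholly higher, beside 9.42% of all genes at 1 CPM or more. The integrated stress response had 22 of 27 above 0 and a median of 0.22. On the log2(TPM + 1) scale 18 of 33 and 15 of 27 were above 0. *NODAL* was at 2.26, 3.41 and 0.725 CPM in the LN523 libraries and 3.32, 4.62 and 1.42 CPM in the LN521 libraries, with a log2 fold change of -0.56 ± 0.38 (SE, adjusted p = 0.854), and its antagonist *LEFTY1* at -0.18 ± 0.34 (adjusted p = 0.917). Both varied more between lanes than between matrices. The 10 lists of lineage markers, integrins other than laminin receptors, junctions, keratins, annexins and interferon response also had 0 edgeR calls among 194 genes, with 13 at an unadjusted p under 0.05. DESeq2 called 2 of them, beside 1.65% of all genes tested. It called 1 on the photoreceptor fate list (adjusted p = 0.000473) and 1 on the amnion, trophoblast and surface ectoderm list (adjusted p = 0.00233). Glycolysis and hypoxia genes had pair medians of 0.15, -0.88 and 0.10, a wider scatter between pairs than in the other signalling and metabolic lists.

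The differences also moved with general properties of the genes. Over protein-coding genes at 1 CPM or more, split into quintiles by transcript length, the median was 0.17 in the shortest quintile and -0.06 in the longest. In pair 3 the order was reversed, at -0.08 and 0.10. By level, the median was -0.17 in the lowest quintile and 0.18 in the highest. Histones, ribosomal proteins and respiratory genes are short and abundant, whereas collagens, *HSPG2* and *MKI67* have long transcripts, and the part that length and level played in the group differences was not tested. In bulk RNA, a change in level per cell and a change in the make-up of the culture cannot be told apart.

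The third matrix gives context for the same genes. LN323 and LN523 differed in 90 genes (0.233%) and LN323 and LN521 in 967 (2.5%), and these comparisons share libraries with the one above, so their values are set side by side only. *MALAT1* was at 204, 343 and 153 CPM in the LN323 libraries, *MIAT* at 68.7, 88.9 and 46, *EGR1* at 0.945, 4.24 and 2.96 and *KCNQ1OT1* at 33, 46.3 and 23.4, each with a mean below that of LN521. *H3C10* was at 426, 316 and 445 CPM and *HSPA8* at 4734, 2808 and 5274 CPM on LN323. The median LN523 minus LN323 difference was -0.13 for the 62 genes and -0.07 for the 179, and the median LN323 minus LN521 difference was 0.96 and -1.36. After filterByExpr, edgeR called 0 genes in both, with 376 and 3116 at an unadjusted p under 0.05.

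At days 22 and 32 the same contrast could be read in other libraries. Of the 62 genes higher at day 2, 30 were above 0 at day 22 and 24 at day 32. Of the 179 lower, 113 of the 175 measured were below 0 at day 22 and 64 of the 173 measured at day 32. For comparison, 46.3% of all genes tested were above 0 at day 22 and 48% at day 32. Calls were 221 genes at day 22 (0.572%) and 24 at day 32 (0.0609%), but without the lane block they were 1 and 0, and with 1 LN523 or LN521 library left out they ranged from 17 (without LN523 replicate 3) to 511 (without LN521 replicate 2) at day 22 and from 1 (without LN523 replicate 3) to 1907 (without LN521 replicate 1) at day 32. A difference of the LN523 minus LN521 effect between day 2 and day 22 was tested directly, and 253 genes passed (0.61%), or 2 after filterByExpr.

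*SOCS3* was the named gene called at all 3 days, with log2 fold changes of 0.96, 1.39 and 1.23 and adjusted p values of 0.00581, 7.82e-08 and 0.0221, and with 1 library left out at a time it was called in 6 of 6 fits at day 22 and 4 of 6 at day 32. *RGS5* was at 1.01, 0.72 and 0.88, and was called at days 2 and 22, at day 22 in 1 of the 6 fits that left out 1 library. *MIAT* was at -1.46, -0.80 and 1.01, so it was lower on LN523 at day 2 and higher at day 32 (adjusted p = 0.0446). With 1 day 32 library left out at a time its value there ranged from 0.82 to 1.15, and it was called in 1 of 6 fits. *H3C1*, *H3C10* and *H1-5* were called higher at day 2 and lower at day 22, at -0.93, -0.71 and -0.80, but the day 22 groups overlapped, and each was called in 3 of the 6 fits that left out 1 day 22 library. *COL1A1* went from -0.79 to 0.73 (adjusted p = 0.0208), and was called in 1 of those 6.

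*NANOG* and *POU5F1* at the later days turned on 1 library. *NANOG* was at 0.241, 0.0245 and 0 CPM on LN523 and 11.2, 0.0492 and 0.114 CPM on LN521 at day 22, and *POU5F1* at 1.74, 2.33 and 1.24 and 76.2, 1.38 and 1.54 CPM. The first LN521 library was high and all the others were under 1 CPM for *NANOG* and under 3 CPM for *POU5F1*. The day 22 log2 fold changes were -4.50 (adjusted p = 0.00146) and -2.02 (adjusted p = 0.0566), and without that library they were -1.95 and 0.13, with adjusted p values of 1 and 1. At day 32 the first LN521 library again held the most, at 2.29 CPM of *NANOG* and 15.2 CPM of *POU5F1*.

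**Figure D5:**
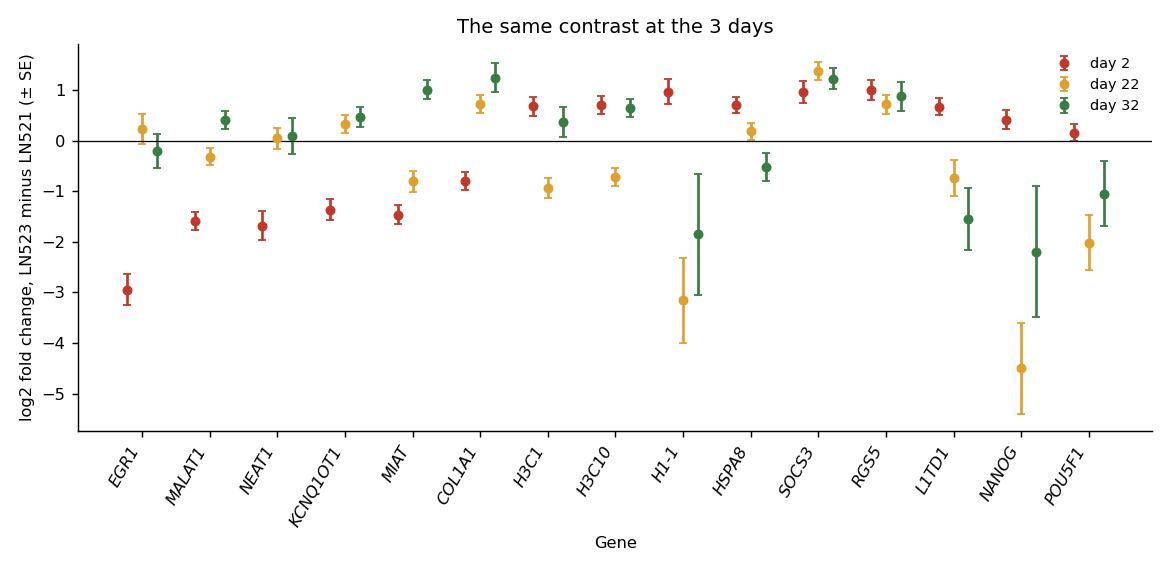
The LN523 minus LN521 log2 fold change with its standard error is plotted for 15 genes at days 2, 22 and 32. *SOCS3* and *RGS5* are above 0 at each day, while the nuclear RNAs *MALAT1*, *NEAT1* and *KCNQ1OT1* are well below 0 at day 2 alone, and the values of *NANOG* and *POU5F1* below 0 at days 22 and 32 rest on the first LN521 library.

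How the called genes move with differentiation was read from LN323 libraries, which take no part in the contrast. Between day 2 and day 22 on LN323, 36 of the 62 genes fell and 10 rose, while 26.8% of all genes at 1 CPM or more fell and 20.6% rose. The medians were -1.14 for the 62 and -0.12 for all. Of the 179 genes lower on LN523, 42 rose and 27 fell, with a median of 0.14. These LN323 day 2 libraries also entered the estimate of the spread at day 2.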

How the data were processed

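Total RNA was depleted of ribosomal RNA and made into stranded libraries, sequenced as 150-base pairs. Per the labels and the study's methods, the authors trimmed reads with cutadapt, aligned them to hg38 (Ensembl 79) with STAR 2.5.2b, counted them with featureCounts 1.5.1, and removed ribosomal RNA and mitochondrial genes. The deposited table holds whole-number counts, and a second deposited table holds TPM (counts scaled by transcript length and library sum) made by the authors, used here as an alternative only.

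The members of the comparison and the gene lists were chosen with earlier results of these data known. Counts were fitted with edgeR 4.0.16 in R 4.3.3 (quasi-likelihood test, TMM, genes with more than 1 count in sum, 9 day 2 libraries, lane as a block, Benjamini-Hochberg adjusted p under 0.05). The biological coefficient of variation was 37.4%, and the prior degrees of freedom were infinite. Standard errors are the log2 fold change over the root of F, so at day 2 they too reflect the spread typical of a gene's level. The lane block comes from the study's model: deviations of LN523 and LN521 libraries of 1 lane correlated at 0.0359, 0.103 and 0.207, so lanes were not shown to pair the cultures. The alternatives used DESeq2 1.42.0 and limma 3.58.1. The fits were also run on simulated counts drawn without lane effects. These differ from the libraries in that respect, so no conclusion is drawn from them. Of 44852 genes, 43052 matched GENCODE 44, used for classes and overlaps. Named genes were the 15 largest rises and falls and the 10 smallest p each way among calls with a mean of 1 CPM in at least 1 of both groups and 1 sign in all 3 lanes (log2 CPM with a prior count), called list members, fixed matrix and stem cell genes, and the ends of each list described. Replicates of 1 matrix differed by more than counting noise. Genes missing from the table were not analysed here.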

Additional observations from a re-analysis of the deposited data

Results flagged for a closer look

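For 26 of the 79 named genes the LN523 minus LN521 difference itself changed between day 2 and day 22, tested as an interaction with edgeR over the 12 LN523 and LN521 libraries of these days (adjusted p under 0.05). Over all genes tested for this change, 253 passed (0.61%). Of the 79 named genes, 58 had been called at day 2, and the interaction used the same day 2 libraries. A difference nearer 0 at day 22 is therefore partly set by how these genes were chosen. The values below are the day 22 log2 fold change minus that of day 2. Among genes lower on LN523 at day 2, the change was 3.1 for *EGR1*, 2.748 for *DES*, 1.805 for *NEAT1*, 1.292 for *MALAT1*, 1.303 for *GABPB1-AS1*, 1.267 for *FOS*, 1.607 for *KCNQ1OT1*, 0.9868 for *WSB1* and 1.532 for *COL1A1*, and the adjusted p ran from 1.06e-09 for *EGR1* to 0.0274 for *WSB1*. Among genes at or above 0 at day 2, it was -1.362 for *H1-5*, -1.148 for *H4C2*, -1.534 for *H3C1*, -1.378 for *H3C10*, -1.256 for *H4C1*, -1.338 for *H2AC4* and -4.069 for *H1-1* for histones. It was -1.802 for *POU5F1*, -5.703 for *NANOG*, -1.221 for *L1TD1*, -1.455 for *METTL7A*, -1.169 for *SERPINB9*, -1.786 for *ARHGAP22*, -1.117 for *ODC1*, -1.339 for *LHFPL6*, -1.926 for *MAPK8IP2* and -1.203 for *SOCS2*. Adjusted p values ran from 5.59e-27 for *NANOG* to 0.0418 for *SOCS2*. The values of *NANOG* and *POU5F1* rest on the first LN521 library of day 22: without it they were -2.72 (adjusted p = 0.656) and 0.0956 (adjusted p = 1). Leaving out each of the 12 libraries in turn, *EGR1* was the 1 gene of the 26 that passed every time (2.03 to 4.05), and *FOS*, *METTL7A* and *L1TD1* passed 2, 2 and 3 times of 12, the fewest. With filterByExpr, 2 genes of the whole table passed this test, and without the lane block 162. Groups of 3 libraries were not screened for single outlying samples.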

How the results depend on the processing

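Calls against LN521 at day 2 (241, 62 higher and 179 lower) came to 264 with RLE size factors and 310 with halved counts. They came to 198 (82 higher, 116 lower) with upper-quartile factors, to 637 (103 and 534) with DESeq2, to 509 (130 and 379) in the 6 libraries alone, to 9 (1 and 8) with all 27 libraries, and to 522 (136 and 386) with no replicate block. They came to 0 with filterByExpr, with at least 10 counts in every library, and with limma on log2(TPM + 1) or log2(TPM + 0.1), at 2103, 1560, 3913 and 3891 unadjusted. Of 3 settings chosen after seeing the data, all with filterByExpr, the 6 libraries alone gave 2 (0 and 2), and no replicate block and limma-voom gave 0, with 2780 and 2385 unadjusted. Leaving out 1 library or lane gave 14 to 1056 calls (7 to 423 higher, 7 to 649 lower). An arm of 2 libraries shares the spread of the other groups. The cause of these changes was not tested, beyond the smaller number of genes or samples.

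With no replicate block, LN323 against LN521 gave 1476 genes, LN523 against LN521 at day 22 gave 1 and at day 32 gave 0, and the change between days 162. With filterByExpr, LN523 against LN323, LN323 against LN521 and days 22 and 32 gave 0 (376, 3116, 957 and 1486 unadjusted), and the change between days 2. Leaving out 1 LN523 or LN521 library, chosen after seeing the data, gave 17 (LN523 replicate 3) to 511 (LN521 replicate 2) calls at day 22, 1 (LN523 replicate 3) to 1907 (LN521 replicate 1) at day 32, and 7 (LN521 replicate 3 of day 2) to 461 (LN521 replicate 2 of day 22) for the change between days. Lane pairing changed no other call of a whole comparison by over 1.5 times.

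The median of all genes at 1 CPM or more was 0.03, 0.10 with upper-quartile factors, and -0.15 and -0.16 on the TPM scales. Genes not called turned sign with log2(TPM + 1) (-0.15 for *LAMC1*, -0.097 for *DAG1*, -0.017 for *SOX2*, -0.030 for *POU5F1*, -0.066 for *CCN2* and -0.14 for *LAMB1*), with log2(TPM + 0.1) (-0.15 for *LAMC1*, -0.097 for *DAG1*, -0.017 for *SOX2*, -0.030 for *POU5F1*, -0.067 for *CCN2* and -0.14 for *LAMB1*), with upper-quartile factors (0.0072 for *LAMB2* and 0.033 for *ITGB1*), with all 27 libraries (0.024 for *LAMB2* and 0.049 for *ITGB1*) and in the 6 libraries alone (0.0014 for *ITGB1*). With 1 library or lane left out, the log2 fold changes that turned spanned *DUSP6* -0.73 to 2.00, *CCN1* -0.36 to 0.011, *LAMC1* -0.016 to 0.13, *LEFTY1* -0.77 to 0.39, *LAMB2* -0.14 to 0.096, *DAG1* -0.014 to 0.24, *TFAP2A* -1.83 to 0.38, *CCN2* -0.00090 to 0.31, *LAMB1* -0.30 to 0.56, *LAMC3* -0.21 to 0.039 and *ITGB1* -0.15 to 0.14. Depth limits the genes near 1 CPM, where counting error is large.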
